A study of Mus musculus with 564 samples.

Results

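The compounds described here are AZD1208, SGI1776 and Silmitasertib, 3 of the 58 clinical kinase inhibitors (CKIs) that were profiled in mouse bone marrow-derived macrophages (BMDMs). Their libraries are the columns of the deposited table whose names start with a compound's name, 32 of 564 libraries, of which 10 were from AZD1208, 12 from SGI1776 and 10 from Silmitasertib. The BMDMs were wild type, and the study's methods give them as cells of male C57/BL6 mice. They were pre-treated for 1 h with the vehicle DMSO or with a CKI, and then left unstimulated (UT) or given LPS or IL-4 at 10 ng/mL for 30 min, 1 h, 2 h or 4 h. ChIP-seq for H3K27ac, a histone acetylation found at regulatory elements in use, gave a value at each of 59190 cis-regulatory elements (CREs).

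Each member had 1 library at each stimulus and time, with these exceptions. AZD1208 and Silmitasertib had 2 UT libraries each, and SGI1776 had 1. SGI1776 had 2 libraries at LPS 30 min, LPS 2 h and IL-4 2 h. DMSO had 2 libraries in each of its 9 groups, 18 in all. The labels do not say whether 2 libraries of a group came from separate cultures, so the spread between libraries may be technical. The p-values of compounds rest on the spread of libraries around a fit of time and compound, shared by all compounds. With mostly 1 library per group, this spread also holds effects of compounds that change with time. The p-values of the DMSO courses rest on the DMSO libraries alone. The concentrations listed by the study for SGI1776 and Silmitasertib were nearly the same, and that of AZD1208 was much lower. SGI1776 and Silmitasertib were therefore tested against each other, and AZD1208 values stand beside theirs without such a test.

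PIM1, PIM2 and PIM3 are serine/threonine kinases that are active as soon as they are made, so that their activity follows the amount of protein. Their genes are induced by cytokine and growth factor signals through STAT and NF-kB factors, and the kinases act on survival, translation and cell cycle proteins. CK2 is a constitutively active kinase built from catalytic subunits (CSNK2A1, CSNK2A2) and a regulatory subunit (CSNK2B), with a very wide range of substrates, NF-kB pathway proteins among them. AZD1208 is an inhibitor of the PIM kinases and Silmitasertib of CK2. SGI1776 is known as a PIM inhibitor, but the study lists IRAK3 as its target, a kinase-like protein of macrophages that restrains signalling from Toll-like receptors.

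The promoters that communicate the first result are those of Pim1 and Pim3, the PIM genes with an H3K27ac response to LPS and to IL-4. The 250 bases before the RefSeq start of each gene (GRCm38.p6) are shown, 5′ to 3′ on the strand of the gene, with matches to an NF-kB motif (GGGNNNTCC, either strand) in capitals. The Pim1 window was chr17:29492835-29493084 on the plus strand and held 0 matches. The Pim3 window was chr15:88861944-88862193 on the plus strand and held 1 match. Of 32851 RefSeq promoters, 15.2% held this motif in the same window, and of the 6 targeted kinase genes with a promoter CRE, 2 did (Pim3 and Csnk2b).
Pim1: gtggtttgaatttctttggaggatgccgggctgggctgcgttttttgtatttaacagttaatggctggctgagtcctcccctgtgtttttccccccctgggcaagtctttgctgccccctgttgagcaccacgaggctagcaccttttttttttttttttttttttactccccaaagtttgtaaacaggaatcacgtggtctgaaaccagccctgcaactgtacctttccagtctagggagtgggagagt
Pim3: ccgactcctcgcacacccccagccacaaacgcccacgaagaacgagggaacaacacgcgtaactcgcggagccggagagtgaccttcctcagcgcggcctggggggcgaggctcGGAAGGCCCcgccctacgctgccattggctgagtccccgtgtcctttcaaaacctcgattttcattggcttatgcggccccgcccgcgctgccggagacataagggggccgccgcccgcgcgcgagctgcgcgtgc

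Depth and contrast separated the libraries by the order of the columns. Read numbers were estimated from the spacing of the deposited values, which gave a spacing in 562 libraries. The median was 4326261 reads for DMSO, 4032102 for AZD1208, 1854298 for SGI1776 and 1670717 for Silmitasertib, and the member libraries ranged from 874046 to 4940856 reads. The ratio of strong to weak CREs (median value of the highest against the lowest decile of CREs by mean value) had a median of 75.1 in DMSO, 32.0 in AZD1208, 14.6 in SGI1776 and 13.2 in Silmitasertib. The other CKIs beside which a member stands in the table were alike in this ratio, with 30.8 for the neighbours of AZD1208 and 13.0 for those of SGI1776 and Silmitasertib. Such a set of consecutive columns is called a run, since the labels give no batch. AZD1208 lay in run 5 with AC480, BMS387032, Capmatinib, Poziotinib, Ruxolitinib, SNS314 and TG100572. SGI1776 and Silmitasertib lay in run 6 with Apitolisib, Bafetinib, GDC0994, Losmapimod, MK5108, Neratinib, Pimasertib and Tanzisertib. Each member was compared with its run mates, which were close to it in these measures and, for SGI1776 and Silmitasertib, include the other member. It was also compared with DMSO, where the compound cannot be told apart from the depth and the ratio. The 2 libraries of a group correlated at r = 0.823 to 0.873 for SGI1776, 0.867 for Silmitasertib, 0.957 for AZD1208 and 0.959 to 0.981 for DMSO.

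The cells carried macrophage marks in every member. Of 12 macrophage marker genes, 9 had a promoter CRE, and their summed value had a median of 5820 with AZD1208 (3842 to 6426), 4270 with SGI1776 (2900 to 5523), 4521 with Silmitasertib (3498 to 5265) and 5962 with DMSO (4647 to 6764), with 0 values of 0. The promoter CREs of Csf1r and Cd68 were not among those of the table. Of 18 markers of other cell types, 5 had a promoter CRE, with a summed median of 136 (74 to 192), 186 (131 to 213) and 204 (158 to 296) in the members and 73 (44 to 114) in DMSO. These values were higher where the ratio of strong to weak CREs was lower, and the part of other cells in the results was not tested.

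The genes of the targeted kinases were described first. With DMSO, LPS raised H3K27ac at the promoter CREs of Pim1 and Irak3, and IL-4 raised it at that of Pim3. The same direction was seen with all 3 members. The thresholds for a regulated CRE in DMSO were an adjusted p under 0.01 and a log2 difference over 1 at any time, which 14680 CREs passed upward after LPS (29.0% of 50697 tested) and 12447 downward (24.6%), and 6415 upward after IL-4 (13.6% of 47018) and 5196 downward (11.1%).

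Pim1, the PIM gene of cytokine-stimulated blood cells, was measured at a CRE on chr17:29488283-29495668 (mm10) whose centre lies in an exon. Its normalized read count with DMSO was 1140 and 1172 in UT, and after LPS 2503 and 2670 (30 min), 2720 and 2799 (1 h), 2463 and 2618 (2 h) and 2358 and 2609 (4 h). AZD1208 gave 1053 and 1028 in UT and 1876, 2177, 1778 and 1762 at the 4 times of LPS. SGI1776 gave 920 in UT, and 1532 and 1571, 1803, 1160 and 1841, and 1441 after LPS. Every AZD1208 and SGI1776 library after LPS lay below the lowest DMSO library after LPS. Silmitasertib gave 846 and 852 in UT and 1683, 1707, 1621 and 1735 after LPS, also below DMSO. The other CKIs of the runs were low too, with 2070 to 2516 (median 2299) in run 5 and 1372 to 1926 (median 1689) in run 6 at LPS 1 h. The log2 difference at LPS 1 h from UT was 1.25 with DMSO, 1.06 with AZD1208, 0.97 with SGI1776 and 1.00 with Silmitasertib, against 1.01 to 1.20 over the run 5 mates and 0.60 to 1.18 over the run 6 mates. After IL-4 the Pim1 value lay between 696 and 1425 in the members and between 1061 and 1296 in DMSO.

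Pim3, a PIM gene with wide expression, was measured at a CRE on chr15:88861098-88864807. With DMSO it gave 227 and 228 in UT, and 278 and 278, 545 and 484, 526 and 510, and 426 and 449 at 30 min, 1 h, 2 h and 4 h of IL-4. AZD1208 gave 313 and 354 in UT and 380, 531, 663 and 616 after IL-4. SGI1776 gave 320 in UT and 371, 519, 508 and 434, and 290 after IL-4. The 4 h library of SGI1776 was thus below its own UT library, whereas the 4 h libraries of DMSO and AZD1208 stayed above theirs. This SGI1776 library had the fewest estimated reads of its compound, 915162. Silmitasertib gave 259 and 246 in UT and 289, 386, 610 and 491 after IL-4. At IL-4 2 h the run mates spanned 595 to 761 (run 5) and 330 to 562 (run 6), so that the Silmitasertib value was above its mates and the AZD1208 value within them. This Silmitasertib library had the fewest estimated reads of the member libraries, 874046, with 1 read standing for a value of 10.71. The part of this in its Pim3 value was not tested. After LPS, Pim3 peaked at 30 min with DMSO and with each member (366 and 391 with DMSO, 539 with AZD1208, 376 and 462 with SGI1776, 486 with Silmitasertib) and then declined. Against DMSO, Pim3 was higher after LPS with AZD1208 (log2 difference 0.63 ± 0.16 SE, limma adjusted p = 0.00126) and gave 0.28 and 0.39 with SGI1776 and Silmitasertib, which were not called. Pim2, the PIM gene of lymphoid cells, was weak at its CRE on chrX:7877370-7879062, with 21 to 56 over the DMSO libraries, 34 to 79 with AZD1208, 12 to 121 with SGI1776 and 25 to 82 with Silmitasertib. Pim2 was called higher than in DMSO after LPS with each member (0.71, 0.63 and 0.76), and this direction turned under the correction for GC content and level (−0.05, −0.26 and −0.15) and, for SGI1776, under quantile normalization (−0.11).

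The CK2 subunit genes were not among the CREs that LPS or IL-4 regulated in DMSO. Csnk2a1, the catalytic subunit gene at chr2:152225707-152228153, gave 271 and 280 in UT and 252 to 408 after stimulation with DMSO. AZD1208 gave 244 and 335 in UT and 323 to 454 after stimulation, SGI1776 gave 323 and 209 to 313, and Silmitasertib gave 296 and 272, and 232 to 373. Csnk2b, the regulatory subunit gene at chr17:35120471-35123038, spanned 301 to 421 in DMSO, 323 to 469 with AZD1208, 244 to 404 with SGI1776 and 234 to 444 with Silmitasertib. The members overlapped DMSO at both genes. Csnk2a2 had no promoter CRE in the table.

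Irak3, the listed target gene of SGI1776, was measured at chr10:120200764-120203842. With DMSO it gave 292 and 274 in UT, then 439 and 496, 420 and 519, 467 and 519, and 551 and 654 through the LPS course. AZD1208 gave 296 and 284 in UT, then 491, 545, 345 and 630. SGI1776 gave 283 in UT, then 392 and 391, 430, 255 and 286, and 473. Both SGI1776 libraries at LPS 2 h lay near the UT level, and the other libraries of that course lay above it. Silmitasertib gave 298 and 290 in UT, then 389, 457, 417 and 593. The run 6 mates at LPS 2 h spanned 274 to 422 with a median of 336, so that 1 of the SGI1776 libraries fell just below them and the other among them. After IL-4, Irak3 stayed between 217 and 310 in the members and DMSO.

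**Figure D1:**
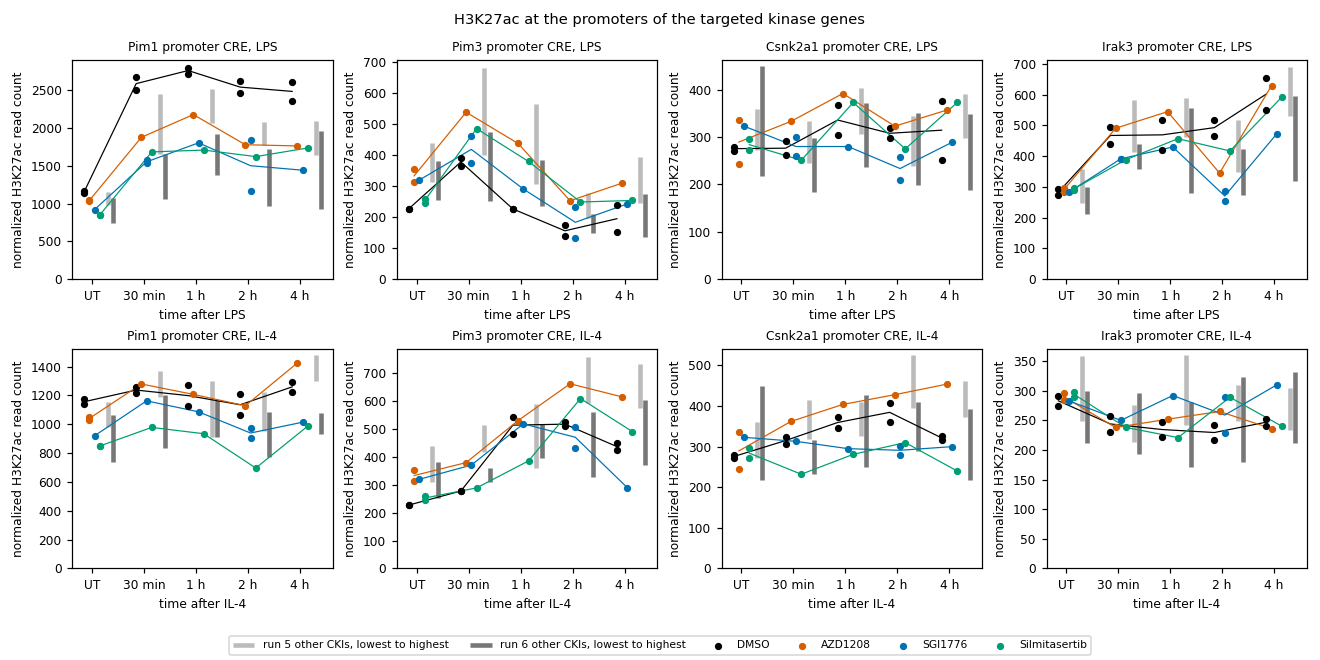
H3K27ac at the promoter CREs of Pim1, Pim3, Csnk2a1 and Irak3 (normalized read count, vertical axis from 0) against time after LPS (upper row) or IL-4 (lower row). Each point is a library, lines join the means of a compound, and grey bars span the other CKIs of run 5 (light) and run 6 (dark). With Pim1 after LPS, the 3 members sit with the grey bars and below the black DMSO points.

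Against run mates, none of the promoter CREs of these genes was called. A call needed a Benjamini-Hochberg adjusted p under 0.05 over all CREs tested and a log2 difference over 0.5, in limma on log2(value + 5) with 1 coefficient per compound averaged over the times. The UT libraries were among these times for both stimuli, so a difference given after LPS or IL-4 also holds the difference in UT. Over the 6 targeted kinase genes the difference from run mates was at most 0.19 in size. This value belonged to Irak3 with Silmitasertib after LPS (0.19, 95% CI −0.03 to 0.41), and Irak3 with SGI1776, which the study lists as its inhibitor, gave −0.10 (−0.31 to 0.10). Pim1 gave −0.07 with AZD1208, 0.03 with SGI1776 and 0.08 with Silmitasertib after LPS, and 0.02, 0.07 and −0.14 after IL-4. Csnk2a1 gave 0.01, −0.01 and 0.12 after LPS and −0.03, −0.03 and −0.14 after IL-4. Against DMSO, Pim1 was lower after LPS with SGI1776 (log2 difference −0.65 ± 0.12 SE, limma adjusted p = 3.99e-06) and Silmitasertib (−0.61 ± 0.13, adjusted p = 5.25e-05), and was not called with AZD1208 (−0.40 ± 0.13, adjusted p = 0.00895). These Pim1 calls were lost under quantile normalization (−0.31 and −0.34) and under a correction for GC content and level (−0.43 and −0.44).

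Over all CREs, few or no differences between the members and their run mates were called. After LPS, 0 of 59163 CREs were called with AZD1208 (0.0%), 0 with SGI1776 (0.0%) and 0 with Silmitasertib (0.0%), and 313, 1107 and 1687 CREs had an unadjusted limma p under 0.05. After IL-4, 0 of 59147 CREs were called with AZD1208 (0.0%), 129 with SGI1776 (0.218%, all lower) and 0 with Silmitasertib (0.0%), with 114, 3489 and 9147 CREs at an unadjusted p under 0.05. These were 0.529%, 1.87% and 2.85% of CREs after LPS and 0.193%, 5.9% and 15.5% after IL-4. Without any effect, and with the right spread, a share of 0.05 is expected. Whether the shared spread was too wide for AZD1208 was not tested, so its counts of 0 do not show that it had no effect. The count of 0 for Silmitasertib after IL-4 became 272 under quantile normalization (48 higher and 224 lower) and 22 without its UT replicate 1 (16 higher and 6 lower). The median half-width of the 95% interval was 0.451, 0.42 and 0.449 after LPS and 0.411, 0.409 and 0.409 after IL-4, on the log2 scale. The interval lay within ±1 at 96.3%, 96.9% and 93.1% of CREs after LPS and at 97.4%, 94.7% and 82.7% after IL-4. The half-width differed between CREs, with 0.248 to 0.659 (5th to 95th percentile) for AZD1208 after LPS. Differences smaller than the half-width could be missed, and larger ones could fail the adjusted p. The same test made calls with other CKIs of run 6, with 547 CREs lower and 13 higher with Pimasertib after LPS, 644 and 5 after IL-4, and 91 and 32 with Bafetinib after LPS. No member was tested against those CKIs directly.

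The 129 CREs that were lower with SGI1776 after IL-4 were AT-rich and distal, with a median GC content of 37.9% against 46.4% over all CREs and 4.65% at promoters against 19.3%. The values were lowest in 2 of the 6 libraries. The median value over the 129 CREs was 12 in SGI1776 IL-4 2 h replicate 1, with 63 CREs at 10 or less, and 33 in the IL-4 30 min library, with 29 CREs at 10 or less. It was 78 at 1 h, 121 in the second library at 2 h, 103 at 4 h and 88 in UT. The latter 4 libraries were thus inside the range of the other CKIs of run 6, 72 to 145 with a median of 112, and the first 2 below it. Silmitasertib libraries gave 92 to 154, AZD1208 libraries 65 to 124 and DMSO libraries 120 to 207.

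The library with the median of 12 also stood apart in its dependence on GC content, measured as the median log2 deviation from the mean library in the most GC-rich CREs minus that in the most AT-rich ones. It reached 0.98, against −0.01 in the other library of the group, 0.53 in the IL-4 30 min library, and −0.881 to 0.759 (median −0.048) over the other CKIs of run 6. It held 436 CREs at 0, and the other library of its group 70. Without this library 3 CREs were called lower, against 10 without the IL-4 30 min library, 446 without the second IL-4 2 h library and 544 without the IL-4 4 h library. With the values corrected for GC content and level 23 CREs were called, and 22 were called under each of 4 scalings (as deposited, quantile, median ratios, and GC and level).

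**Figure D2:**
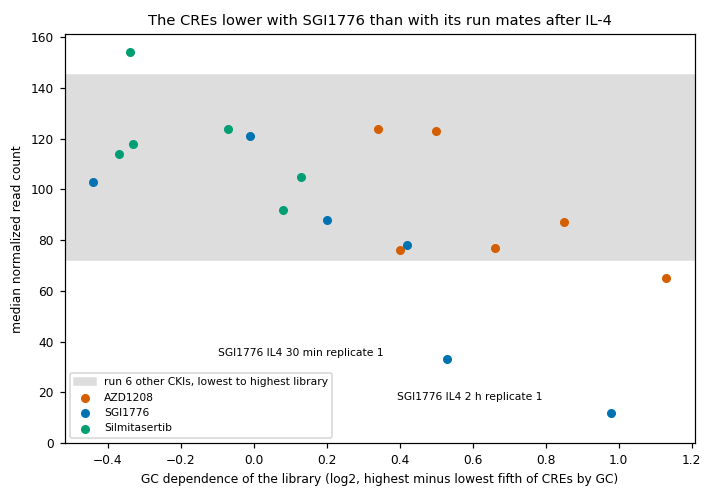
Median normalized read count over the 129 CREs that were lower with SGI1776 than with its run mates after IL-4, against the GC dependence of the library (log2), for the UT and IL-4 libraries of the 3 members. Each point is a library, and the grey band spans the other CKIs of run 6, from 72 to 145. The SGI1776 libraries at IL-4 2 h replicate 1 (12) and IL-4 30 min (33) lie below the band.

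By the rule for naming, the largest differences were at Xpo6, Gm9733 and Ccdc71l. CREs were named by the nearest protein-coding start, and the rule asked for a mean value of at least 30 and 1 sign at every time, which 41 of the 129 met. The central 300 bases of 2 of these CREs are shown, as the plus strand of GRCm38, because they carry the difference and show its base composition, with runs of 5 or more A or T in capitals. The Xpo6 window was chr7:126116963-126117262 with 38.7% GC and the Ccdc71l window chr12:32376808-32377107 with 36.3% GC. The third, from Akna (chr4:63385557-63385856, 49.3% GC), is a CRE that was higher with SGI1776 than with Silmitasertib after IL-4.
Xpo6: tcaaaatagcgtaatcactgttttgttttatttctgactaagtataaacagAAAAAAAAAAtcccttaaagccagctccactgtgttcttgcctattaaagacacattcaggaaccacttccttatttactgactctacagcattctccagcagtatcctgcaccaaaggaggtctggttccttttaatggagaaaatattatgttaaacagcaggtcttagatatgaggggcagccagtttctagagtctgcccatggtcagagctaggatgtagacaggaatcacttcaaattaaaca
Ccdc71l: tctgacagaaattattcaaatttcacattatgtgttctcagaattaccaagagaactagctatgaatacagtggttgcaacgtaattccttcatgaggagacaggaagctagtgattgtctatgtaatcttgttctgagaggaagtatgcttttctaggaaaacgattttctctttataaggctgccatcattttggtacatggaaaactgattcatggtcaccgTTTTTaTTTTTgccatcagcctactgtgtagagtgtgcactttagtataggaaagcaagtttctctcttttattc
Akna: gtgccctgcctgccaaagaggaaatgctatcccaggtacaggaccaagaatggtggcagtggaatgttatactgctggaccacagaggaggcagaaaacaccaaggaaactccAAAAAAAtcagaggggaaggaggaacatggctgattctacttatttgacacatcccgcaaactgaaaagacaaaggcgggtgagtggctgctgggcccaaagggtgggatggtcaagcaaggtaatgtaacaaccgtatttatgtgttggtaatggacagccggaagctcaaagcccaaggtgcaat

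Xpo6 encodes a nuclear export receptor for actin, and its CRE lay in an intron at chr7:126116322-126117904, 4288 bp from the start. With SGI1776 it gave 51 in UT, and 5 at 30 min, 32 at 1 h, 5 and 88 at 2 h, and 31 at 4 h of IL-4. The 2 libraries at IL-4 2 h thus covered the whole range of the UT and IL-4 libraries of SGI1776. Silmitasertib gave 71, 64, 43 and 97 after IL-4 and 80 and 133 in UT, and AZD1208 gave 63, 74, 54 and 34, and 54 and 49. DMSO libraries spanned 61 to 118 and the other run 6 CKIs 49 to 121. The difference from run mates was −1.49 ± 0.22 (limma adjusted p = 1.48e-06), and without the library with the strong GC dependence it was −1.18 (adjusted p = 0.0271). After LPS, Xpo6 gave 23 to 67 with SGI1776.

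The Ccdc71l CRE (chr12:32376140-32377776, intergenic) gave 0 at 30 min, 13 at 1 h, 0 and 81 at 2 h and 31 at 4 h of IL-4 with SGI1776, and 16 in UT. DMSO spanned 10 to 111 and the other run 6 CKIs 8 to 125, so that 2 of the 6 SGI1776 libraries, at 0, lay below both ranges and the others within them. Its difference was −1.45 ± 0.29 (adjusted p = 0.00275), and −1.10 without the library (adjusted p = 0.734). Gm9733 (chr3:15339723-15341378, intergenic) gave −1.46 ± 0.32 (adjusted p = 0.00819) and −1.08 without the library (adjusted p = 1.0).

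The 3 CREs called without that library were those of Xpo6, Snx10 and Srf, of which the last 2 were named after their values were seen. Srf encodes the serum response factor, which drives immediate early and cytoskeletal genes, and its CRE at chr17:46555453-46558374 lies 738 bp from the start. SGI1776 gave 257, 165, 253 and 169, and 93 through the IL-4 course, and 131 in UT. The other run 6 CKIs spanned 163 to 330 and DMSO 172 to 299 after IL-4, so that the 4 h library of SGI1776 was the lowest of them. That library had the fewest estimated reads of the SGI1776 libraries, 915162, and 1 read stood for a value of 10.35. Snx10 encodes a sorting nexin of endosomes, and its CRE at chr6:51520017-51521617 gave 28, 16, 45 and 96, and 0 after IL-4, with 33 to 114 over the other run 6 CKIs. The value of 0 came from the same 4 h library. The difference without the library was −0.54 for Srf and −1.15 for Snx10, each with a limma adjusted p of 0.0271. With the library the values were −0.43 (adjusted p = 0.0187) for Srf, which was under the fold limit and so not among the 129, and −1.05 (adjusted p = 0.00357) for Snx10. Srf thus became a call in a setting that was chosen after seeing the data.

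SGI1776 and Silmitasertib, the pair at nearly the same concentration, were compared directly in 2 tests, 1 for each stimulus. After LPS, 0 of 59163 CREs were called (0.0%), with 602 at an unadjusted limma p under 0.05 and a median interval half-width of 0.577. After IL-4, 76 of 59147 were called (0.128%), 3 higher and 73 lower with SGI1776, with 7551 at an unadjusted p under 0.05. Without the SGI1776 library of strong GC dependence 0 were called after IL-4, without the IL-4 30 min library of SGI1776 1 was, and with the values corrected for GC content and level 0 were. The interval of the difference lay within ±1 at 83.7% of CREs after LPS and 66.6% after IL-4, so that for the rest a difference of more than 1 on the log2 scale was within the interval.

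Of the 76, 47 met the rule for naming. Akna, a gene for a centrosomal protein with an AT-hook, had an intronic CRE at chr4:63384636-63386778. It gave 204, 207, 215 and 162, and 269 through the IL-4 course with SGI1776, and 103, 133, 75 and 179 with Silmitasertib. In UT the order was not the same, with 213 for SGI1776 and 232 and 170 for Silmitasertib. DMSO spanned 107 to 227 and the other run 6 CKIs 90 to 293. The difference was 0.65 ± 0.15 (limma adjusted p = 0.039), and 0.63 without the library (adjusted p = 0.24). The other 2 higher CREs were those of Dok1, an adaptor that restrains receptor signalling (chr6:83032719-83034338, 0.54 ± 0.13, adjusted p = 0.0428), and Washc2, a subunit of the endosomal WASH complex (chr6:116207136-116209196, 0.54 ± 0.12, adjusted p = 0.0348).

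On the lower side the largest were Sypl, Gm9733 and Ccdc71l. The Sypl CRE, in an intron at chr12:32963206-32964807, gave 0, 29, 0 and 48, and 52 through IL-4 with SGI1776 and 8 in UT. Silmitasertib gave 77, 74, 75 and 66, and 34 and 38 in UT, above every SGI1776 library of the same time. The DMSO range was 12 to 70 and that of the other run 6 CKIs 13 to 68, so that 3 of the 4 Silmitasertib libraries after IL-4 exceeded both. The difference was −1.89 ± 0.37 (limma adjusted p = 0.00627), and −1.52 without the library (adjusted p = 0.202). Gm9733 and Ccdc71l gave −1.76 ± 0.42 and −1.72 ± 0.39 (adjusted p = 0.0428 and 0.0348), with adjusted p = 0.339 and 0.3 without the library.

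At promoters of named genes the pair differed by values that were not called. Pim1 gave −0.05 after LPS (95% CI −0.32 to 0.23) and 0.19 after IL-4 (−0.01 to 0.39), and Irak3 gave −0.26 after LPS (−0.54 to 0.02). The widest values after IL-4 were those of Tfec, a macrophage transcription factor induced by IL-4 (−0.61, −1.03 to −0.19, adjusted p = 0.202), Il12b, the gene of the shared IL-12 and IL-23 subunit (−0.64, −1.34 to 0.05), and Lif, a cytokine of the IL-6 family (0.61, −0.08 to 1.31).

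The effect of a member was also compared between the stimuli, as its difference from run mates after LPS minus that after IL-4. With AZD1208 0 of 59169 CREs were called (0.0%), with SGI1776 0 (0.0%) and with Silmitasertib 1 (0.00169%), and 524, 1667 and 10985 had an unadjusted limma p under 0.05. The 1 CRE was intergenic, at chr4:72251469-72253044, with its nearest start 51337 bp away in Tle1, a gene for a transcriptional corepressor. Silmitasertib gave 19, 3, 0 and 21 through the LPS course, 135, 83, 107 and 66 through IL-4, and 21 and 44 in UT. The other run 6 CKIs spanned 12 to 123 (median 36) after LPS and 36 to 116 (median 69) after IL-4, and DMSO 8 to 21 and 31 to 98. Silmitasertib was thus low after LPS, like DMSO, and 2 of its IL-4 libraries lay above the DMSO range. The interaction was −2.34 ± 0.42 on the log2 scale (adjusted p = 0.00215). That test was fitted to the stimulated libraries alone, in which the effect after LPS was −1.82 (adjusted p = 0.00758). In the fits with the UT libraries, to which the other values against run mates belong, neither effect was called (−1.13 after LPS, adjusted p = 1.0, and 0.45 after IL-4, adjusted p = 0.334), and these 2 values do not subtract to the interaction.

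Against DMSO, many CREs were called with every member, most of them weak CREs with higher values. After LPS, 18346 CREs were higher (31.0% of 59163) and 2358 lower (3.99%) with AZD1208, 28513 higher (48.2%) and 1927 lower (3.26%) with SGI1776, and 27414 higher (46.3%) and 1169 lower (1.98%) with Silmitasertib. After IL-4, 7347 were higher (12.4% of 59147) and 1702 lower (2.88%) with AZD1208, 30267 higher (51.2%) and 2700 lower (4.56%) with SGI1776, and 35295 higher (59.7%) and 1866 lower (3.15%) with Silmitasertib. The higher CREs had median DMSO values of 13.5 to 20.9 over the 6 comparisons, and the lower CREs 172 to 316. The median CRE was shifted by 0.36, 0.56 and 0.56 after LPS and 0.23, 0.60 and 0.83 after IL-4, on the log2 scale, and the values below are read against these shifts. The split turned under quantile normalization, with 686 higher and 1659 lower CREs for AZD1208, 1035 and 1296 for SGI1776 and 529 and 711 for Silmitasertib after LPS, and 337 and 781, 3481 and 4872, and 4447 and 5323 after IL-4. Called under each of 4 scalings were 297 higher and 170 lower with AZD1208 after LPS, 523 and 266 with SGI1776, and 297 and 184 with Silmitasertib, and after IL-4 166 and 94, 1404 and 846, and 1860 and 693. At promoter CREs the median shift after LPS was 0.12, 0.02 and 0.08. The other CKIs of the runs had ratios of strong to weak CREs like those of the members, and the part of this ratio in the counts was not tested. With AZD1208 the ratio was lower after LPS than after IL-4, and the part of this in its larger count after LPS was not tested.

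Interferon-stimulated genes (ISGs), which macrophages switch on after LPS through interferon-beta, were lower than in DMSO with each member. Of 27 ISG promoter CREs, 16 were lower and 0 higher after LPS with AZD1208, 13 and 0 with SGI1776, and 11 and 0 with Silmitasertib, with median log2 differences of −0.56, −0.49 and −0.48. The lower shares were 59.3%, 48.1% and 40.7%, beside 2.79%, 5.35% and 3.3% of all promoter CREs. After IL-4, 8, 8 and 4 of the 27 were lower, and 0, 1 and 1 were higher, the latter being Ifnb1. These lower shares were 29.6%, 29.6% and 14.8%, beside 1.3%, 4.04% and 5.28% of all promoter CREs. Against run mates 0 of the 27 were called with any member after either stimulus. The count depended on the scaling, with 5, 3 and 1 lower after LPS under quantile normalization, 20, 23 and 21 under median ratios, and 6, 3 and 2 under the correction for GC content and level, and the median stayed below 0 under each of these (−0.27 to −0.77).

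The promoters of Isg15, Ifit1 and Gbp2 are shown because these genes carried the ISG pattern and hold the interferon-stimulated response element (ISRE). The windows are the 250 bases before the RefSeq start (GRCm38.p6) on the strand of the gene, with matches to GAAA followed after any 2 bases by GAAA, on either strand, in capitals. They lie at chr4:156200819-156201068 on the minus strand with 3 overlapping matches (Isg15), chr19:34640639-34640888 on the plus strand with 2 (Ifit1) and chr3:142620413-142620662 on the plus strand with 1 (Gbp2). Of 22 ISGs with a RefSeq promoter here, 10 held the motif (45.5%), against 2.98% of 32851 promoters.
Isg15: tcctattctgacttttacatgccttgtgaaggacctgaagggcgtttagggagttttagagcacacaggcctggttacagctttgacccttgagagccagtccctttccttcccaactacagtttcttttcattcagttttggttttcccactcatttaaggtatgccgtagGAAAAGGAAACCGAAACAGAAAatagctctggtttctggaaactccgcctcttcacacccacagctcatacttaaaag
Ifit1: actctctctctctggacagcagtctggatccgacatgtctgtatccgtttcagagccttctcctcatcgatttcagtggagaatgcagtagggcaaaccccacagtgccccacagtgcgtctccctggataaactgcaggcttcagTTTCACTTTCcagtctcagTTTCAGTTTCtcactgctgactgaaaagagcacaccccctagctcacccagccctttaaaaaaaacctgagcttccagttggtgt
Gbp2: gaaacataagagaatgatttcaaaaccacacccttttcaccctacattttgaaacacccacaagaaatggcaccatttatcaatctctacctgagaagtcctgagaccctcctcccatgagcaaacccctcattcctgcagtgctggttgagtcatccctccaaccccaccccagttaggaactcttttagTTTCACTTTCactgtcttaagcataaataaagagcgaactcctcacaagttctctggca

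Isg15, a ubiquitin-like modifier, was measured at chr4:156199608-156201686. DMSO gave 137 and 123 in UT and 208 and 304, 520 and 545, 770 and 796, and 841 and 686 through the LPS course. AZD1208 gave 119 and 114, then 124, 285, 488 and 509. SGI1776 gave 123, then 196 and 162, 328, 307 and 471, and 415, and Silmitasertib gave 103 and 101, then 191, 353, 483 and 546. All member libraries from 1 h on were below the DMSO libraries of the same time, and they lay within the other CKIs at 2 h (341 to 563 in run 5, 221 to 517 in run 6). The differences from DMSO were −0.64 ± 0.17 with AZD1208 (limma adjusted p = 0.00151), −0.64 ± 0.16 with SGI1776 (adjusted p = 0.000354) and −0.54 ± 0.17 with Silmitasertib (adjusted p = 0.00465).

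Gbp2, a guanylate-binding protein of cell-autonomous defence, had its CRE at chr3:142617987-142622166. DMSO gave 192 and 194 in UT, and 419 and 405, 858 and 724, 1336 and 1420, and 1139 and 1169 after LPS. AZD1208 gave 131 and 114, then 176, 433, 700 and 556. SGI1776 gave 88, then 275 and 218, 510, 516 and 652, and 603, and Silmitasertib gave 122 and 215, then 238, 353, 744 and 723. The stimulated member libraries were below DMSO at every time, and at 2 h the other CKIs were as well (368 to 814 in run 5, 432 to 802 in run 6). The differences were −0.95 ± 0.19, −0.92 ± 0.18 and −0.72 ± 0.19 (limma adjusted p = 6.89e-05, 1.23e-05 and 0.000954), and none was called under the correction for GC content and level (−0.35, −0.47 and −0.37).

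Ifih1, the RNA sensor MDA5, had its CRE at chr2:62644826-62647015 and was called lower with all 3 members, after both stimuli, under each of the 4 scalings. DMSO gave 245 and 261 in UT, and 508 and 520, 645 and 652, 1017 and 977, and 935 and 980 after LPS. AZD1208 gave 166 and 165, then 333, 406, 407 and 485. SGI1776 gave 176, then 280 and 248, 463, 348 and 474, and 352, and Silmitasertib gave 154 and 133, then 235, 417, 506 and 622. The members did not overlap DMSO at any time of the LPS course, UT included. The calls after LPS and after IL-4 share these UT libraries, so they are not independent. The run mates were low as well at LPS 2 h, with 467 to 614 in run 5, all above the AZD1208 library, and 273 to 541 in run 6. The differences after LPS were −0.83 ± 0.17, −0.95 ± 0.16 and −0.86 ± 0.17 (limma adjusted p = 6.72e-05, 3.8e-07 and 1.29e-05), and after IL-4 −0.62, −0.66 and −0.85 (adjusted p = 0.00118, 2.51e-05 and 5.84e-08).

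Ifit1, an inhibitor of viral RNA translation, rose from 109 and 84 to 751 and 712 at LPS 2 h with DMSO. At 2 h AZD1208 gave 422, SGI1776 284 and 405, and Silmitasertib 443, within 351 to 608 in run 5 and near 253 to 422 in run 6. Its differences from DMSO were −0.59, −0.60 and −0.67 (limma adjusted p = 0.0198, 0.00749 and 0.00487). Usp18, which removes ISG15 from proteins and dampens interferon signalling (chr6:121245060-121247959), was 1223 and 1217 at LPS 2 h with DMSO, and 664, 418 and 666, and 688 with the members. It was called lower with AZD1208 (−0.87, adjusted p = 0.000364) and SGI1776 (−0.69, adjusted p = 0.00109), and gave −0.48 with Silmitasertib (adjusted p = 0.0349).

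**Figure D3:**
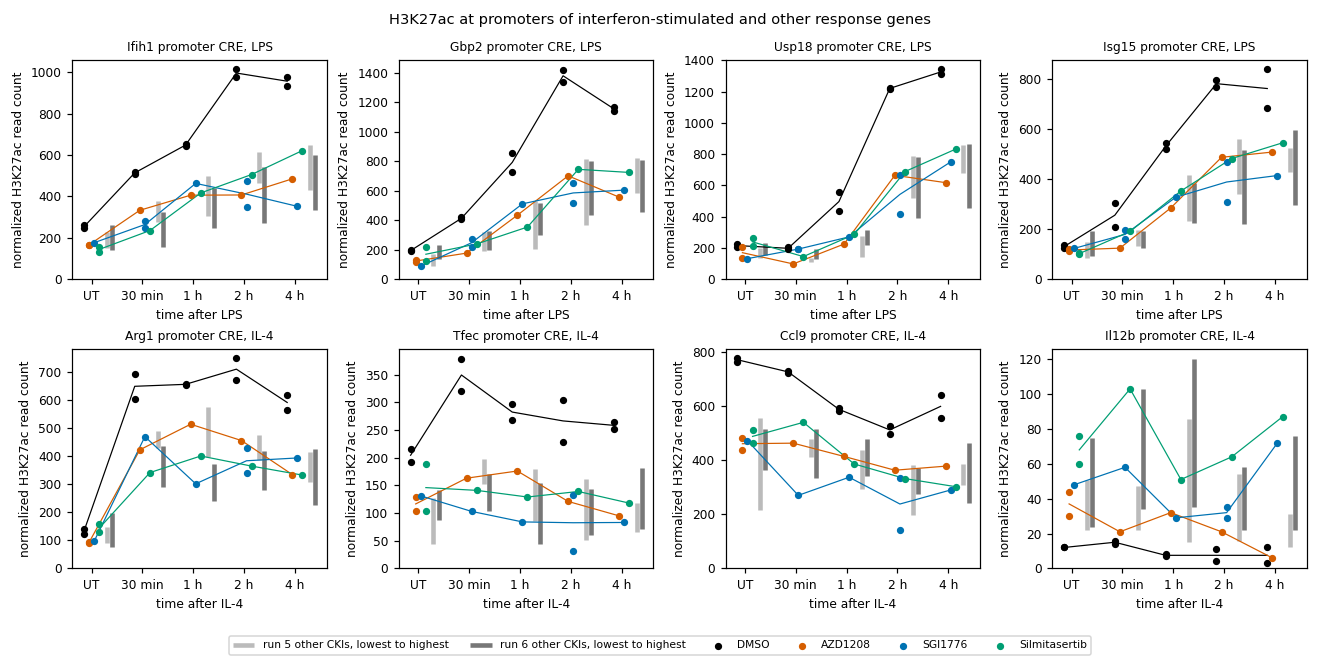
H3K27ac at promoter CREs of 4 ISGs after LPS (upper row: Ifih1, Gbp2, Usp18, Isg15) and of Arg1, Tfec, Ccl9 and Il12b after IL-4 (lower row), as normalized read count from 0 against time. Each point is a library, lines join means, and grey bars span the other CKIs of run 5 (light) and run 6 (dark). For Ifih1 at LPS 2 h DMSO gave 1017 and 977, and the member libraries, 348 to 506, sit near or among the grey bars.

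The ISGs were above their UT level after LPS with each member, as a description without a test, since most member groups had 1 library. Of 26 ISGs induced by LPS in DMSO, 26 had a higher value in each member at the time of the DMSO peak than in its own UT, 24, 24 and 22 of them by more than 1 on the log2 scale. The median log2 difference from UT was 2.08 with DMSO, 1.82 with AZD1208, 1.54 with SGI1776 and 1.70 with Silmitasertib, against 1.84 and 1.48 over the other CKIs of runs 5 and 6. For Isg15 it was 2.55 with DMSO and 2.02, 1.59 and 2.19 with the members, and for Gbp2 2.80 with DMSO and 2.47, 2.65 and 2.16. CREs lower than in DMSO after LPS held the ISRE motif in the central 300 bases at 13.2%, 10.8% and 11.6%, against 5.14% of all CREs. Among those lower under each of the 4 scalings (170, 266 and 184 CREs) the shares were 12.4%, 7.89% and 5.43%. The CREs lower as deposited had a median GC content of 40.1%, 42.6% and 41.7% against 46.4%, and the part of base composition in these shares was not tested.

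NF-kB subunit and inhibitor genes, which form the feedback of LPS signalling, were lower in part, by calls that depended on the scaling. Of 12 promoter CREs, 1 was lower with AZD1208, 5 with SGI1776 and 5 with Silmitasertib after LPS, and 0 were higher, with medians of −0.21, −0.43 and −0.43. The lower shares were 8.33%, 41.7% and 41.7%, beside 2.79%, 5.35% and 3.3% of all promoter CREs. Rel, the c-Rel subunit, gave −0.36 (not called), −0.61 and −0.60. Tnfaip3, the A20 deubiquitinase that ends NF-kB signalling, gave −0.23 (not called), −0.58 and −0.53, and Nfkbiz, a nuclear inhibitor-like coactivator, −0.35 (not called), −0.52 and −0.50. Under quantile normalization 1, 1 and 0 were lower, with medians of 0.09, −0.08 and −0.16, and under the correction for GC content and level 0, 0 and 1, with −0.12, −0.25 and −0.29. The calls of Rel and Tnfaip3 were lost under quantile normalization, with −0.16 and −0.24 for Rel and −0.18 and −0.26 for Tnfaip3 with SGI1776 and Silmitasertib. After IL-4 the counts were 2 higher and 1 lower, 2 and 1, and 2 and 0. The higher share was 16.7% with each member, beside 10.8%, 19.8% and 21.9% of all promoter CREs. The lower shares were 8.33%, 8.33% and 0.0%, beside 1.3%, 4.04% and 5.28%. Of 8 of these genes induced by LPS in DMSO, 8 were above UT in each member at the time of the DMSO peak, with median log2 differences of 1.27, 1.25 and 1.47 against 1.82 in DMSO.

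Inflammatory cytokine and chemokine genes went both ways. Of 14 promoter CREs, 4 were higher and 2 lower after LPS with AZD1208, 5 and 1 with SGI1776, and 5 and 2 with Silmitasertib. After IL-4 the counts were 5 and 2, 8 and 2, and 9 and 2, with medians of 0.39, 0.89 and 1.02, read against a shift of all CREs of 0.23, 0.60 and 0.83. The higher share was 28.6%, 35.7% and 35.7% after LPS and 35.7%, 57.1% and 64.3% after IL-4. Over all CREs it was 31.0%, 48.2% and 46.3%, and 12.4%, 51.2% and 59.7%, and over the promoter CREs 16.3%, 19.4% and 19.2%, and 10.8%, 19.8% and 21.9%. Under quantile normalization the counts were 0 and 1, 1 and 1, and 0 and 0 after LPS, and 0 and 1, 2 and 3, and 6 and 2 after IL-4. The higher genes were those with low values in DMSO. Il12b (chr11:44398328-44400777) gave 3 to 16 after IL-4 with DMSO, 6 to 32 with AZD1208, 29 to 72 with SGI1776 and 51 to 103 with Silmitasertib, and the other run 6 CKIs spanned 34 to 103 at 30 min and 22 to 76 at 4 h. The Silmitasertib library at 4 h, 87, lay above the latter range. The Il12b differences were 0.96 ± 0.31, 1.77 ± 0.31 and 2.41 ± 0.31 after IL-4 (limma adjusted p = 0.0229, 5.84e-07 and 2.01e-11), and of these the Silmitasertib one alone was called under quantile normalization (0.37, 0.47 and 0.91) and the correction for GC content and level (0.46, 0.59 and 0.94).

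Nos2, the inducible nitric oxide synthase, was higher than in DMSO with each member after both stimuli, by 0.84, 1.02 and 1.09 after LPS and 1.11, 2.18 and 2.33 after IL-4. Its LPS values show where the difference lay (chr11:78919062-78921471). DMSO rose from 11 and 9 in UT to 13 and 19 at 30 min, 106 and 91 at 1 h, 270 and 251 at 2 h and 370 and 314 at 4 h. AZD1208 gave 46 and 44 in UT, then 94, 78, 304 and 404. SGI1776 gave 35, then 117 and 75, 175, 267 and 356, and 419, and Silmitasertib 44 and 76, then 53, 155, 372 and 514. The members were thus several times above DMSO in UT and at 30 min, and nearer to it at 2 h. Under quantile normalization the Nos2 calls of AZD1208 after both stimuli (0.61 and 0.50) and of Silmitasertib after LPS (0.59) were lost. Csf3, the granulocyte growth factor gene, gave 0.94, 0.94 and 1.06 after LPS and 1.08, 1.64 and 2.20 after IL-4. Its LPS calls were lost under quantile normalization (0.57, 0.38 and 0.48) and the correction (0.55, 0.46 and 0.55), and after IL-4 the Silmitasertib call was made under both (1.04 and 1.16), the AZD1208 call under neither. Cxcl1, a neutrophil chemokine, gave 0.37 (not called), 0.54 and 0.90, and 0.83, 1.73 and 2.19, with 0.66 (not called) and 1.00 for SGI1776 and Silmitasertib after IL-4 under quantile normalization.

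Ccl9, a chemokine that resting macrophages make, was lower with each member, at chr11:83576399-83579397. DMSO gave 764 and 779 in UT and 683 to 1049 after LPS. AZD1208 gave 439 and 483, then 306, 559, 403 and 344. SGI1776 gave 472, then 409 and 432, 484, 337 and 450, and 415, and Silmitasertib gave 465 and 511, then 583, 427, 424 and 519. All of them lay below DMSO, UT included, and within the other CKIs of their runs at LPS 1 h (307 to 656 in run 5, 350 to 542 in run 6). The differences after LPS were −1.05 ± 0.15, −1.01 ± 0.14 and −0.82 ± 0.15 (limma adjusted p = 3.17e-08, 5.56e-09 and 5.79e-06).

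Targets of IL-4 and STAT6, the genes of alternative activation, differed from DMSO at few promoters after IL-4. Of 21 promoter CREs, 0 were higher and 2 lower after IL-4 with AZD1208, 1 and 2 with SGI1776, and 1 and 2 with Silmitasertib, with medians of 0.10, 0.00 and −0.14. The higher shares were 0.0%, 4.76% and 4.76%, and the lower share was 9.52% with each member. Over all promoter CREs, 10.8%, 19.8% and 21.9% were higher and 1.3%, 4.04% and 5.28% lower after IL-4. After LPS, 6 and 2, 10 and 1, and 7 and 1 were called, so that 28.6%, 47.6% and 33.3% were higher, beside 31.0%, 48.2% and 46.3% of all CREs and 16.3%, 19.4% and 19.2% of promoter CREs. Under quantile normalization these counts were 2 and 1, 1 and 1, and 0 and 1. Of 14 that IL-4 induced in DMSO, 14 were above UT in each member at the time of the DMSO peak, with median log2 differences of 1.62, 1.33 and 1.44 against 1.92 in DMSO and 1.67 and 1.32 over the other CKIs of runs 5 and 6. CREs lower than in DMSO after IL-4 held the STAT6 motif, TTC and GAA spaced by any 4 bases, in the central 300 bases at 18.7%, 17.5% and 15.6%, against 9.22% of all CREs, and those lower under each of the 4 scalings at 19.1%, 18.2% and 13.0%.

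Arg1, the arginase that marks alternative activation, had its CRE at chr10:24926716-24929154. DMSO gave 123 and 141 in UT and 692 and 604, 654 and 656, 671 and 747, and 617 and 564 through IL-4. AZD1208 gave 94 and 90, then 422, 513, 455 and 334. SGI1776 gave 96, then 469, 301, 339 and 427, and 393, and Silmitasertib gave 128 and 158, then 341, 400, 364 and 332. Every member library after IL-4 was below every DMSO one, with the other CKIs at 387 to 476 (run 5) and 279 to 419 (run 6) at 2 h. The differences were −0.62 ± 0.15, −0.70 ± 0.15 and −0.59 ± 0.15 (limma adjusted p = 0.00146, 1.46e-05 and 0.000191), and 0 of the 3 were called under the correction for GC content and level (−0.34, −0.33 and −0.34). The log2 difference of Arg1 from UT of the same compound at the DMSO peak was 2.38 with DMSO, 2.25 with AZD1208, 1.93 with SGI1776 and 1.33 with Silmitasertib, the last being the member with the highest UT values.

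Tfec had its CRE at chr6:16897681-16899478. After IL-4 DMSO gave 229 to 379, AZD1208 163, 176, 121 and 95, SGI1776 103, 84, 32 and 133, and 83, and Silmitasertib 141, 129, 139 and 118. The member libraries did not overlap those of DMSO, and SGI1776 held the lowest library, the one with the strong GC dependence. The differences were −1.01 ± 0.19, −1.56 ± 0.19 and −0.94 ± 0.19, and after the correction for GC content and level −0.24, −0.64 and −0.41, of which the SGI1776 value was called.

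Genes tied to PIM and CK2 function were called at few promoters, in small lists. Over all promoter CREs, 16.3%, 19.4% and 19.2% were higher and 2.79%, 5.35% and 3.3% lower after LPS. After IL-4, 10.8%, 19.8% and 21.9% were higher and 1.3%, 4.04% and 5.28% lower. In lists of 14 and 13 genes such shares also amount to few calls. Of 14 PIM substrate and effector genes, 1 was higher with AZD1208 and 0 lower after LPS, and 0 were higher and 1 lower with each of SGI1776 and Silmitasertib, with medians of 0.02, −0.02 and −0.01. After IL-4 the counts were 1 and 0, 0 and 1, and 1 and 1. Foxo1, a factor that kinases such as AKT hold out of the nucleus, gave 0.73 with AZD1208 after LPS (called), and 0.20 and 0.13 with SGI1776 and Silmitasertib (not called). Mcl1, an anti-apoptotic gene, gave −0.31 (not called), −0.66 and −0.53. Of 13 CK2 substrate and effector genes, 0 were called in either direction after LPS, with medians of 0.11, −0.05 and −0.05, and after IL-4 2 were higher with AZD1208, 1 with SGI1776 and 0 with Silmitasertib.

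Bcl6, a repressor of inflammatory genes, was among the STAT feedback and survival genes. After LPS Bcl6 (chr16:23987895-23989707) gave 246 to 397 with DMSO, 294, 431, 257 and 239 with AZD1208, 54 and 274, 189, 110 and 265, and 168 with SGI1776, and 210, 218, 179 and 241 with Silmitasertib. AZD1208 overlapped DMSO, Silmitasertib lay below it, and SGI1776 had 2 libraries within the DMSO range. The differences were −0.01, −0.89 ± 0.21 (limma adjusted p = 0.000163) and −0.60 ± 0.22 (adjusted p = 0.0156), with no test between AZD1208 and the others. The run mates had a lower median in run 6 than in run 5, with 221 to 439 (median 272) in run 5 and 135 to 251 (median 165) in run 6 at LPS 1 h, and no member was called against them (0.06, −0.06 and 0.26). Over the 13 genes of the list, 3 were higher and 2 lower after LPS with AZD1208, 2 and 5 with SGI1776, and 3 and 5 with Silmitasertib. The higher shares were 23.1%, 15.4% and 23.1%, beside 16.3%, 19.4% and 19.2% of all promoter CREs. The lower shares were 15.4%, 38.5% and 38.5%, beside 2.79%, 5.35% and 3.3%.

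The counts of the other lists stand beside those over all 11393 promoter CREs, of which 1856 were higher and 318 lower with AZD1208, 2210 and 609 with SGI1776, and 2184 and 376 with Silmitasertib after LPS. In the same comparisons, immediate early and AP-1 genes (18) had 4 higher and 0 lower with AZD1208, 2 and 1 with SGI1776, and 3 and 1 with Silmitasertib, and Egr3, an immediate early factor, changed sign with the scaling. MYC and ribosome biogenesis genes (17) had 1 and 0, 3 and 0, and 2 and 0. Unfolded protein and integrated stress response genes (15) had 1 and 0, 3 and 1, and 3 and 0, and cell cycle and DNA replication genes (17) had 0 and 1, 1 and 1, and 2 and 1. Macrophage markers (9) had 1 and 2, 0 and 3, and 0 and 0. Against run mates, no promoter CRE of any list was called with any member after either stimulus.

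**Figure D4:**
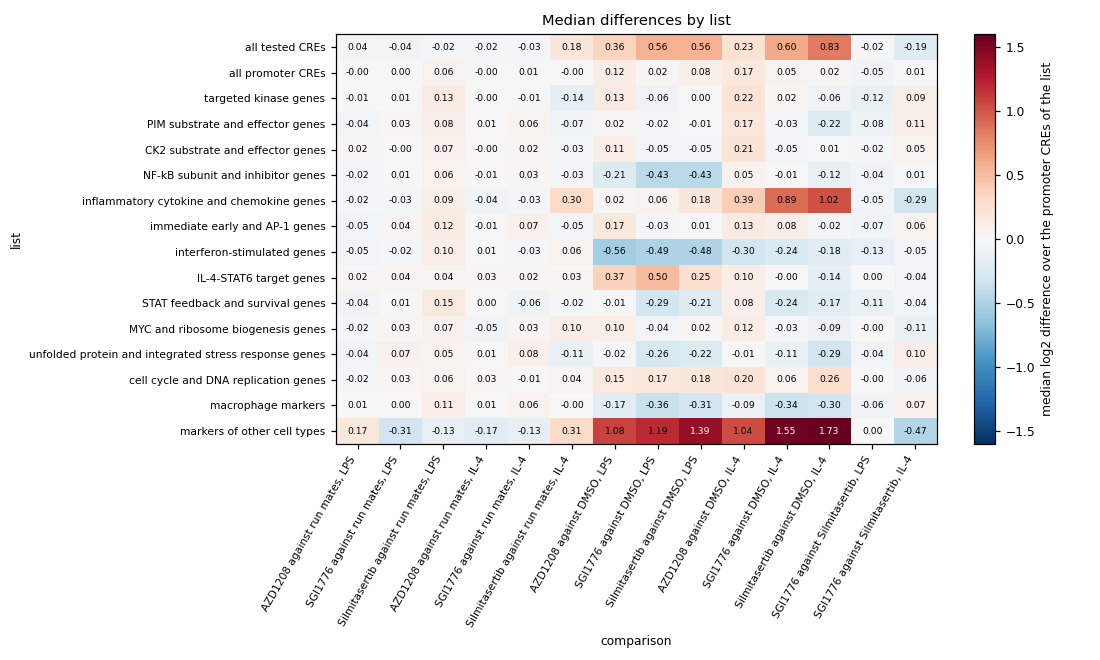
Median log2 difference over the promoter CREs of each list (rows) in each comparison (columns), with the value printed in the cell, red for higher and blue for lower. Against run mates most cells are near 0, and against DMSO the ISGs are at −0.56, −0.49 and −0.48 after LPS while all tested CREs are at 0.36, 0.56 and 0.56.

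The size of the whole response was set beside that of the run mates. The median log2 difference from UT over the CREs induced by LPS in DMSO was 1.12, 1.35, 1.52 and 1.45 at 30 min, 1 h, 2 h and 4 h with DMSO. AZD1208 gave 0.78, 0.87, 1.13 and 1.12, ranking 6, 5, 3 and 5 of 8 in run 5. Its LPS libraries had lower ratios of strong to weak CREs than its UT libraries, and the part of this in its values was not tested. SGI1776 gave 0.76, 0.81, 0.90 and 0.96, ranking 1 of 10, 2 of 10, 4 of 9 and 3 of 10 in run 6. Over these induced CREs SGI1776 thus had one of the larger values of its run, and Silmitasertib, with 0.40, 0.54, 0.73 and 0.72, one of the smaller at 1 h, where it ranked 10 of 10. Over the CREs repressed by LPS the order of this pair was the other way, with −0.66, −0.86, −1.05 and −0.95 for Silmitasertib (ranking 6 of 10, 1 of 10, 1 of 9 and 2 of 10 by size) and −0.64, −0.79, −0.96 and −0.79 for SGI1776 (7, 4, 5 and 7). AZD1208 gave −0.71, −0.86, −0.98 and −0.71 there, ranking 3, 4, 5 and 8 of 8. The UT library of SGI1776 had a ratio of strong to weak CREs of 22.31, and those of Silmitasertib had 21.94 and 10.66. The part of this in the values and ranks of the pair, after LPS or IL-4, was not tested. The CREs had been chosen in the DMSO libraries, so their own values are raised by that choice and are not a fair measure of the same quantity.

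After IL-4 the median over induced CREs was 1.36, 1.27, 1.21 and 1.19 with DMSO and 0.90, 0.93, 0.84 and 0.56 with AZD1208. SGI1776 gave 0.58, 0.64, 0.71 and 1.13, and its 4 h value exceeded the 0.44 to 0.85 of the other run 6 CKIs. That library had the lowest estimated read number of the SGI1776 libraries, 915162, and a ratio of strong to weak CREs of 5.34, and their part in this value was not tested. Silmitasertib gave 0.84, 0.70, 0.98 and 0.67, with the 30 min and 2 h values above the 0.45 to 0.82 and 0.45 to 0.89 of the other CKIs. The 2 h library had an estimated 874046 reads, the fewest of the member libraries, and a ratio of strong to weak CREs of 6.35, and their part was not tested. For the CREs repressed by IL-4, SGI1776 gave −0.40, −0.78, −0.78 and −0.23, ranking 1 of 10, 1 of 10, 2 of 9 and 10 of 10 by size, so that its response was among the largest of the run up to 2 h and the smallest at 4 h. Silmitasertib gave −0.21, −0.55, −0.35 and −0.55, ranking 10, 6, 9 and 6. The other run 6 CKIs spanned −0.34 to −0.23, −0.74 to −0.35, −0.81 to −0.69 and −0.73 to −0.46.

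**Figure D5:**
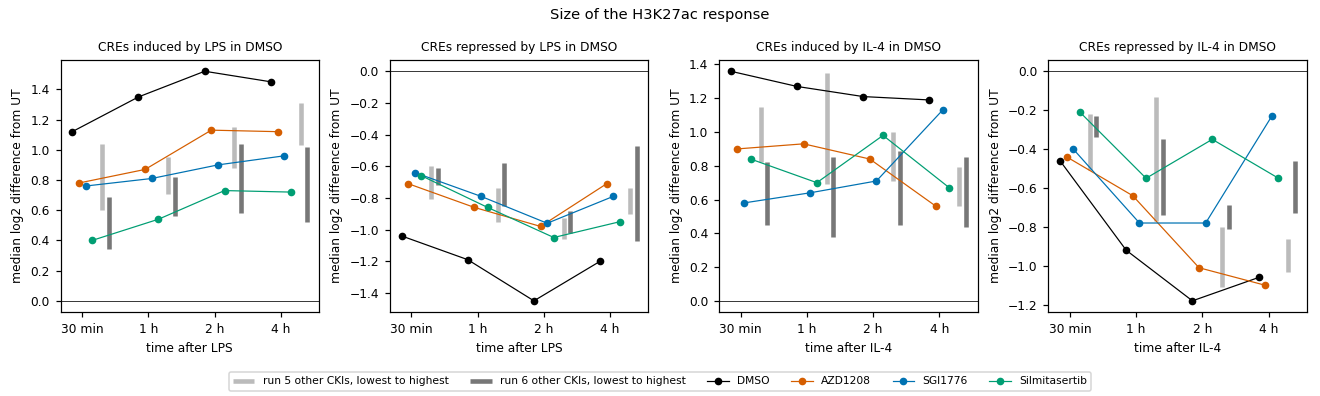
Median log2 difference from the UT libraries of the same compound, over CREs induced or repressed by LPS or IL-4 in DMSO, against time. Points and lines are DMSO and the 3 members, and grey bars span the other CKIs of run 5 (light) and run 6 (dark). After LPS, DMSO reaches 1.52 at 2 h over induced CREs, with AZD1208 at 1.13, SGI1776 at 0.90 and Silmitasertib at 0.73.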

How the data were processed

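H3K27ac ChIP-seq was carried out by the authors in 564 libraries. Per the study's methods, adapters were removed, reads were trimmed to 51 bases and aligned with ShortStack to mm10, and reads were counted with GenomicRanges around ATAC-seq summits (median CRE width 1652 bp) and scaled to invariant peaks. The labels name Bowtie and SAMtools, with no version. The deposited values are normalized read counts rounded to whole numbers, so they were treated as a score, not as raw counts, and no count model was fitted. All 564 value columns were mapped to samples (0 left out).

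CREs with a mean of at least 10 were tested with limma 3.58.1 (R 4.3.3; lmFit, eBayes with trend) on log2(value + 5), so that fold changes of weak CREs are understated. Time and compound were factors over all UT and LPS, or all UT and IL-4, libraries, which share 1 estimate of the spread. Calls used an adjusted p under 0.05 and a log2 difference over 0.5; regulated CREs in DMSO an F-test with an adjusted p under 0.01 and a log2 difference over 1. Intervals are limma's 95% intervals, and counting error is part of the spread. Depth was estimated from the spacing of values, tested on simulated data. Genes and starts came from GENCODE M21 protein-coding genes, promoter CREs having their centre within 1 kb of a start, and promoter sequences from RefSeq (GRCm38.p6). Of 253 list genes, 201 had a promoter CRE; Tnf, Il1b and Nfkbia were among those without. The fits were tested on simulated data.

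Named were the 3 largest differences in each direction among called CREs with 1 sign at every time and a mean of at least 30 (against run mates and for the pair), the promoter CREs of the targeted kinase genes, and up to 4 promoter CREs of each other list with the largest difference, called or not. The members and lists were chosen with earlier results of these data known. Alternatives were the pseudocount, the filter, the scaling, the libraries in the fit and leaving out libraries. Left out were each library of a member, each library of the DMSO courses, or 1 replicate of every DMSO group. Replicate numbers of CKI libraries follow the order of accessions, and those of DMSO the titles.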

Additional observations from a re-analysis of the deposited data

Results flagged for a closer look

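The CRE 51337 bp from the start of Tle1 (chr4:72251469-72253044) was the 1 CRE at which the effect of a member differed between the stimuli by the test of that difference. The difference between the Silmitasertib effect after LPS and that after IL-4, each against run mates, was −2.34 ± 0.42 on the log2 scale (limma adjusted p = 0.00215, 1 of 59169 CREs), in a fit of the stimulated libraries alone. The effect after LPS was −1.82 in those libraries (adjusted p = 0.00758) and −1.13 with the UT libraries in the fit (adjusted p = 1.0). The Silmitasertib libraries gave 19, 3, 0 and 21 after LPS and 135, 83, 107 and 66 after IL-4, with 1 library at each time. The IL-4 libraries had fewer estimated reads (874046 to 1548565) than the LPS libraries (1792869 to 2652393), and the part of this was not tested. Other groups of libraries held too few samples for a check of single libraries that stand apart.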

How the results depend on the processing

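Of the recomputed counts of called CREs, 231 stayed within 1.5 times the reported count and 82 did not, and of the values of named CREs 4970 kept their direction and side of the threshold, 220 fell below it, 30 passed it and 11 turned. The correction for GC content and level, and the settings without SGI1776 IL-4 2 h replicate 1 in every fit, were chosen after seeing the data. The causes of the changes below were not tested. Against run mates after LPS, 1 CRE was called with SGI1776 (Pecr) and 1 with Silmitasertib (Mc2r) at a pseudocount of 1, and 1 with Silmitasertib (Tle1) in the stimulated libraries alone. Against run mates after IL-4, SGI1776 had 224 calls at a pseudocount of 1, 67 at 20, 45 with DMSO and its run alone in the fit, 23 under the GC and level correction, and without the named library 3 as deposited, 7 under quantile normalization and 2 under the correction. Silmitasertib had 6 and 8 calls at the pseudocounts of 1 and 20, 272 under quantile normalization (279 without the library), 3 each under median ratios, in the stimulated libraries alone, and under the correction with and without the library. For the pair after IL-4 the counts were 145 under quantile normalization (32 without the library), 10 under median ratios, and 0 under the correction with and without the library and 0 without it as deposited.

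Against DMSO after LPS, the calls were 2345, 2331 and 1240 under quantile normalization and 1158, 3310 and 2375 under the correction for AZD1208, SGI1776 and Silmitasertib, and 18250 for Silmitasertib in the stimulated libraries alone. After IL-4, AZD1208 had 4122 at a pseudocount of 20, 1118 under quantile normalization, 2918 in the stimulated libraries alone, 14735 with its run alone, and 769 under the correction, and without the library 1156 and 764. SGI1776 had 8353 and 6416 under quantile normalization and the correction (5894 and 5320 without the library), and Silmitasertib 9770 and 7766 (9781 and 7751). The difference between the stimuli gave 7 calls for Silmitasertib under quantile normalization, and 4, 3143 and 6435 for the members against DMSO in place of run mates. CREs regulated by IL-4 in DMSO were 7569 at a pseudocount of 20.

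Directions turned against DMSO for Ccl22 with SGI1776 after IL-4 (−0.05 under the correction), for Lif with AZD1208 after IL-4 (−0.09 under the correction), for Egr3 with SGI1776 after IL-4 (−0.21 under quantile normalization, −0.68 under the correction) and after LPS (−0.06, quantile) and with Silmitasertib after IL-4 (−0.46 and −0.77), and for Pim2 after LPS with AZD1208 (−0.05), SGI1776 (−0.26) and Silmitasertib (−0.15) under the correction and SGI1776 (−0.11) under quantile normalization.

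Each library of the member was left out in turn, and for the comparisons with DMSO also replicate 1 or 2 of every DMSO group. The calls against DMSO ranged from 13166 to 20867 (AZD1208), 24627 to 30021 (SGI1776) and 21798 to 28018 (Silmitasertib) after LPS and from 3420 to 7803, 29325 to 33443 and 35317 to 37861 after IL-4. The AZD1208 count after IL-4 was 5743 without its UT replicate 1, and 4026 and 3420 without DMSO replicates 1 and 2 of every group. Against run mates they ranged from 0 to 0 with AZD1208 for each stimulus and with SGI1776 and Silmitasertib after LPS, from 3 to 544 with SGI1776 and from 0 to 22 with Silmitasertib after IL-4. For the pair the range was 0 to 0 after LPS and 0 to 1094 after IL-4, and for the difference between the stimuli 0 to 0, 0 to 44 and 0 to 3. With each DMSO library left out in turn, the regulated CREs in DMSO ranged from 24327 to 27361 (LPS) and 10197 to 11862 (IL-4). The DMSO replicate numbers did not pair the libraries: over 10 pairs of times the deviations of libraries with the same number correlated at −0.036 to 0.049 (LPS) and −0.043 to 0.083 (IL-4). With the number as a replicate block, 27066 CREs were regulated by LPS and 11611 by IL-4, against 27127 and 11611 without it. The difference of contrasts planned for members of different runs was not run, since SGI1776 and Silmitasertib lie in the same run. With mostly 1 library per group, differences smaller than the intervals given could be missed, and larger ones could fail the adjusted p. The median half-width after LPS was 0.451 for AZD1208 and 0.449 for Silmitasertib. These widths come from 1 estimate of the spread shared by all compounds, so they do not compare the depths of the members.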

Other observations

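The GC dependence of the libraries ranged from −0.837 to 1.15 (median 0.455) over the run 5 CKIs and from −0.399 to 0.555 over DMSO. The highest value of run 6, 0.981, was that of SGI1776 IL-4 2 h replicate 1, and the SGI1776 library at LPS 2 h replicate 1 was at −0.61 with an estimated 1131566 reads.

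Bcl2a1b, an anti-apoptotic gene of the NF-kB response with near-identical copies in mouse, gave −0.89 with AZD1208, −1.02 with SGI1776 and −0.80 with Silmitasertib against DMSO after LPS. Reads of its copies may have been split by the counting, so these values are uncertain, and the AZD1208 and Silmitasertib calls were lost under the correction for GC content and level (−0.37 and −0.49). Tnip3, an A20-binding inhibitor of NF-kB, gave −0.82, −0.90 and −0.61 in the same comparisons, and none of these was called under the correction (−0.30, −0.48 and −0.29). Fosl1, an AP-1 subunit with weak H3K27ac in resting macrophages, gave 0.78, 0.87 and 1.10, of which the Silmitasertib value alone was called under quantile normalization (0.57, 0.61 and 0.77). Socs2, a feedback gene of STAT signalling, gave 0.94, 0.96 and 0.97, and its calls were lost under quantile normalization (0.45, 0.27 and 0.28) and the correction (0.41, 0.53 and 0.54). Ccl22, a chemokine gene of alternative activation, gave 1.69 with SGI1776 and 2.25 with Silmitasertib after IL-4, and with AZD1208 0.73, which was not called. After the correction none was called and the values were −0.18 with AZD1208, −0.05 with SGI1776 and 0.23 with Silmitasertib, and under quantile normalization they were 0.19, 0.40 and 0.70, the last still called.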
